A study of Mus musculus with 28 samples.

Results

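The comparison described here is that of wild-type (WT) mouse liver 12 h after methyl methanesulfonate (MMS) with untreated WT liver. Its members were chosen by their titles, 3 arrays of WT liver 12 h after MMS and 3 of WT untreated liver, which are 6 of the 28 arrays of the series. The series holds liver of WT mice and of mice null for Aag, untreated or taken 6, 12, 24 or 48 h after MMS, and asked how this DNA glycosylase affects gene expression after alkylation. Each array is an Affymetrix MG-U74Av2 oligonucleotide array hybridized with biotin-labelled cRNA made from total liver RNA. Besides these 6 arrays, the comparisons use 2 WT arrays at 6 h and 2 WT arrays at 24 h. They also use 2 Aag null arrays at 12 h and 4 Aag null untreated arrays. All 28 arrays entered the fit that estimates the spread, and control means and Serpina10 levels are given over all of them. The labels give no strain, sex, age, dose or route for any group, and name no vehicle for the untreated mice. Nor do they tell whether replicates came from separate animals, so p-values measure the spread between these arrays.

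MMS transfers methyl groups to DNA, mainly to ring nitrogens of guanine and adenine. Aag, the product of Mpg, excises 3-methyladenine and other damaged purines and starts base excision repair, which then cuts the abasic site, fills the gap and ligates it. The liver answers injury and inflammatory cytokines with the acute phase response, in which hepatocytes raise the output of plasma proteins such as serum amyloid A, orosomucoid and haptoglobin. Metallothioneins are small cysteine-rich proteins that bind zinc and copper and react with electrophiles, and their genes respond to metals, glucocorticoids and oxidants.

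Promoters of 6 genes of the metallothionein and acute phase lists that rose against both control groups used below are shown first, because these lists open the results. Other genes that rose against both control groups by as much as some of them, such as Hp, Lrg1 and Nampt, are not shown. Each window is the 250 bases before the gene start in RefSeq, build GRCm38.p6, plus strand, with all 6 genes matched by symbol. Capitals mark matches on either strand to a metal response element core (TGCACNC or TGCGCNC), a C/EBP motif (TTGCNNAA), a STAT motif (TTCNNNGAA) or an NF-kappaB motif. All 5 motifs were searched in each window, and no match overlapped another. The windows lie at chr8:94178839-94179088 for Mt1, chr8:94172368-94172617 for Mt2, chr7:46751583-46751832 for Saa2, chr4:63362199-63362448 for Orm2, chr12:104406458-104406707 for Serpina3n and chr14:30886226-30886475 for Itih4.
Mt1: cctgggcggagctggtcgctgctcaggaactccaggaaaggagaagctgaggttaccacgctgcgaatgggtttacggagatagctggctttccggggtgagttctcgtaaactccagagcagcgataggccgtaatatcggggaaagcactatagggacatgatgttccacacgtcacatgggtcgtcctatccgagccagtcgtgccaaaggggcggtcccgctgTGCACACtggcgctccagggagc
Mt2: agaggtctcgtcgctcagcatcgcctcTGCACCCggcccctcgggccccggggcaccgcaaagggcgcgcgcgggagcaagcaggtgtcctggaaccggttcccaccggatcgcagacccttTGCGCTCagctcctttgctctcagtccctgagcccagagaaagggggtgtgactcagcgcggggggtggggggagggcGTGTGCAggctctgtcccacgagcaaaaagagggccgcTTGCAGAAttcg
Saa2: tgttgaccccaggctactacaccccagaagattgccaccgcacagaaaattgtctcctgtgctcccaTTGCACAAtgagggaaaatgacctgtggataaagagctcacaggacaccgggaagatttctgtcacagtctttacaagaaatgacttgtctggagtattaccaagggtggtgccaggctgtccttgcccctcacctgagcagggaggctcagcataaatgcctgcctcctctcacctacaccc
Orm2: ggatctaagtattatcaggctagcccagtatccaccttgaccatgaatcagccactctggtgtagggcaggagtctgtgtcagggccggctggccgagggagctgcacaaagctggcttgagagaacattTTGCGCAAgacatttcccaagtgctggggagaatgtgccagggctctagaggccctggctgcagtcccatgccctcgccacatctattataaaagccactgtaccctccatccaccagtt
Serpina3n: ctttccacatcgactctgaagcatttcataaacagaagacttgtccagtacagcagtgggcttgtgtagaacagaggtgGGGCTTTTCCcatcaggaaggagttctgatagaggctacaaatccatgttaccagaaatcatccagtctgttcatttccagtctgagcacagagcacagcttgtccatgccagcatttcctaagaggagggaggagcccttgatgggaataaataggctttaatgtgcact
Itih4: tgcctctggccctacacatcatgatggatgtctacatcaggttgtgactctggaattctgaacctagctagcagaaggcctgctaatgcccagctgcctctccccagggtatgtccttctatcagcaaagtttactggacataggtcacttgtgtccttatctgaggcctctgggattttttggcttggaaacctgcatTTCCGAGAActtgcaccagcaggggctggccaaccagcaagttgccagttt

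Within its window Mt1 held 1 metal response element core, starting 23 bases before the gene start. Bases after the gene start were not searched, so elements there would not be counted for any of the genes. Mt2 held 3, at 223, 128 and 50 bases before the start, and a C/EBP match at 12 bases. Either form of the core was in 21.4% of 32851 promoter windows of the same length, TGCACNC in 10.4% and TGCGCNC in 12.5%. The C/EBP motif was found in Saa2 (183 bases before the start) and Orm2 (120 bases before it) and in 9.56% of all windows. Serpina3n held an NF-kappaB match (171 bases before the start, 1.41% of windows) and Itih4 a STAT match (51 bases before the start, 7.02% of windows). A match describes letters in a window and is not a measured binding site.

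The untreated and treated WT arrays differed in their added controls. The mean of 9 hybridization control probe sets, transcripts of bacteria and phage spiked into every sample, was 10.87 to 11.65 (log2) in the 3 WT untreated arrays and 8.42 to 9.13 in the 3 arrays at 12 h. The excess of 3′ over 5′ Gapdh signal, which rises with shorter or degraded cRNA, was 0.63 to 0.92 in WT untreated arrays and -0.29 to -0.03 at 12 h, and that of Actb was 0.58 to 1.01 and 0.19 to 0.35. Over the series 5 arrays had control means of 10.25 or more (the high set: WT untreated replicates 1 to 3 and Aag untreated replicates 3 and 4), and the other 23 had 9.22 or less (the lower set, which holds all treated arrays with Aag untreated replicates 1 and 2). Treatment and array set therefore cannot be told apart within WT liver. Replicate arrays correlated across genes at 0.950 to 0.962 among WT untreated and 0.985 to 0.994 at 12 h. Beside most results the text gives 2 further values or says whether the call held in them. One is the change after adjustment for array set, a term of the fit, estimated from the 4 Aag untreated arrays. The other is the difference of the 12 h arrays from the 2 Aag untreated arrays of the lower set, which share the array set but not the genotype. Aag untreated replicate 3, 1 of the 2 high-set arrays behind the term, had female-typical transcripts, and the labels give no sex. What part sex had in the adjusted changes was not tested.

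**Figure D1:**
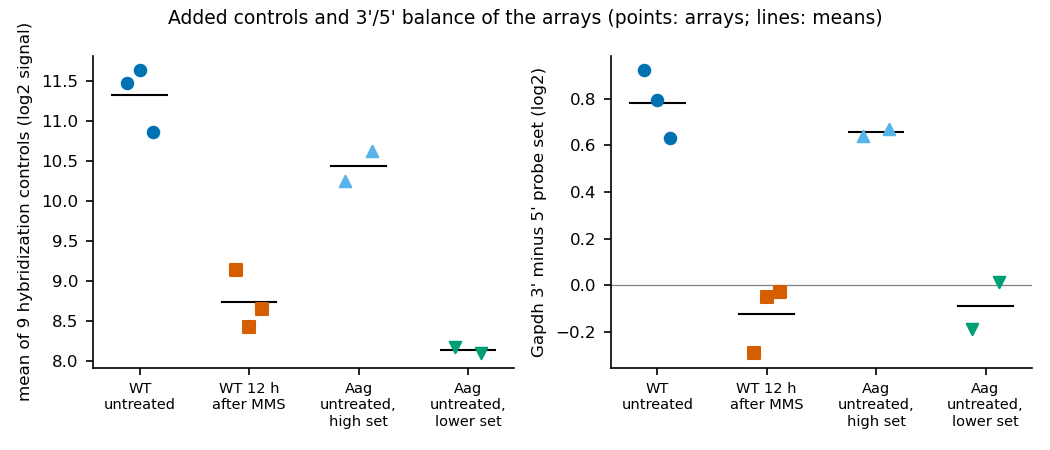
Added controls and RNA balance of the untreated and 12 h arrays. Left, the mean log2 signal of 9 hybridization control probe sets; right, the log2 excess of 3′ over 5′ Gapdh signal; points are arrays and lines are means of WT untreated (3 arrays), WT 12 h after MMS (3), Aag untreated of the high set (2) and Aag untreated of the lower set (2). Both measures divide the Aag untreated arrays in the same direction as they divide untreated from treated WT arrays.

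At 12 h, 1155 of 5487 genes tested (21.0%) had a limma adjusted p under 0.05 and are termed called, 598 higher (10.9%) and 557 lower (10.2%). The median log2 change of all genes tested was 0.04. On the values as deposited, with no scaling between arrays, 1301 genes were called, 954 higher and 347 lower, so that 73.3% of calls were higher against 51.8% after quantile normalization, and the median of all genes was 0.14. Values of the groups did not overlap for 1115 of the 1155 called genes. Among all genes tested, 23.1% lay wholly above and 17.5% wholly below the untreated arrays. Of 382 called genes with more than 1 probe set, 205 had another probe set whose change had the opposite sign. The normalized arrays share a median of 4.10. Signals under it are close to the background of the array, so where every array of a group lay under it the change is given on the log2 scale with no fold. A change of at least 2-fold was found in 170 called genes, 57 higher and 113 lower. The count was 727 without the 12 h array of replicate 1, 681 without replicate 2 and 721 without replicate 3.

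Adjusted for array set, the comparison called 166 genes (3.03%), 96 higher (1.75%) and 70 lower (1.28%), of which 111 (2.02%) were also among the 1155 with the same sign, 56 higher (1.02%) and 55 lower (1.00%). With the Aag untreated arrays of the lower set as controls, 71 were called (1.29%), 33 higher (0.601%) and 38 lower (0.693%). Of these, 51 (0.929%) were also called against WT untreated liver with the same sign, 26 higher (0.474%) and 25 lower (0.456%). Within untreated Aag liver, where no array is shared with the WT comparison, the lower set lay above the high set for 493 of the 598 genes called higher at 12 h (82.4%). It lay below the high set for 411 of the 557 called lower (73.8%). Among all genes tested the corresponding shares were 68.0% of those with a positive and 64.6% of those with a negative WT change. Across the 5487 genes, which are not independent replicates, the correlation of the WT change with the difference between sets in untreated Aag liver was 0.38. The median change of genes called higher was 0.59 against WT untreated liver and 0.15 against the Aag untreated arrays of the lower set. That of genes called lower was -0.65 and -0.21. Among all genes tested the medians were 0.26 and 0.07 for a positive WT change, and -0.23 and -0.08 for a negative one. Both divisions use the change against WT untreated liver, so a smaller median against other arrays follows in part from the choice of genes.

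**Figure D2:**
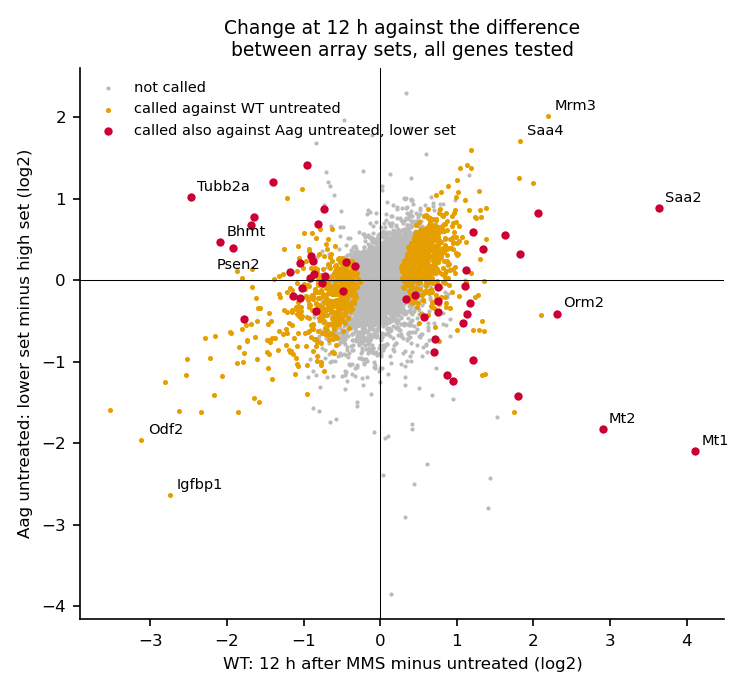
Change of each of 5487 genes at 12 h in WT liver (x axis, log2) against the difference between the lower and the high array set in untreated Aag liver (y axis, log2). Grey genes were not called, orange genes were called against WT untreated liver and red genes also against the Aag untreated arrays of the lower set; Mt1, Mt2 and Orm2 lie at the right below 0, while Mrm3 and Saa4 lie at the upper right, and Odf2 and Igfbp1 at the lower left.

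The largest rises belonged to metallothioneins and acute phase proteins. Mt1 had log2 signals of 6.56, 5.95 and 6.18 in the untreated arrays and of 10.67, 10.78 and 9.57 at 12 h. The groups did not overlap, and the change was 17.3-fold (log2 4.11, SE 0.61, adjusted p = 9.18e-05). Mt2 read 6.99, 7.08 and 6.82 untreated and 10.24, 10.08 and 9.26 at 12 h, a 7.48-fold rise (log2 2.90, SE 0.63, adjusted p = 0.00269). For both genes the 12 h array of replicate 3 was the lowest of its group and still above every untreated WT array. Against the Aag untreated arrays of the lower set (6.62 and 6.31 for Mt1, 6.47 and 6.15 for Mt2) the changes were 3.88 and 3.55, both called. The Aag untreated arrays of the high set were brighter, 9.02 and 8.10 for Mt1 and 8.56 and 7.72 for Mt2, and after adjustment for array set the changes were 6.20 and 4.73. Of the 5 tested genes of the metallothionein and zinc list, 3 rose and 0 fell, where 10.9% of all genes rose and 10.2% fell. The median change was 0.62 against 0.04 for all genes.

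Acute phase genes rose in number and none of them fell. Of 26 tested genes 11 rose and 0 fell, against 10.9% and 10.2% of all genes, with a median change of 0.46. Adjusted for array set, 4 were higher and 0 lower (median 0.27), and against the Aag untreated arrays of the lower set 5 were higher and 0 lower (median 0.38, all genes 0.01). Of all genes, 1.75% and 0.601% were higher in these 2 fits. Saa2, a serum amyloid A apolipoprotein of high-density lipoprotein, read 8.92, 6.79 and 6.93 in untreated WT liver and 11.40, 10.94 and 11.19 at 12 h. Untreated replicate 1 stood above the other untreated arrays, yet all 3 treated arrays lay higher, for a rise of 12.4-fold (log2 3.63, SE 0.83, adjusted p = 0.00366). Its other probe set gave 5.69, 3.89 and 2.99 untreated and 8.29, 7.55 and 7.80 at 12 h (log2 change 3.69), and untreated replicate 1 was again the brightest of its group. The call on Saa2 was lost after adjustment for array set (log2 2.75, adjusted p = 0.33) and with array weights (adjusted p = 0.0725), and held against the Aag untreated arrays (log2 4.03, adjusted p = 0.030).

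Orm2, orosomucoid, a carrier of basic drugs in plasma, was even across untreated arrays at 5.75, 5.72 and 5.68 and read 8.08, 8.34 and 7.64 at 12 h. This was a 4.93-fold rise (log2 2.30, SE 0.31, adjusted p = 2.72e-05), with 2.71 for the array set term and 2.27 against the Aag untreated arrays, both called. Serpina3n, an antichymotrypsin-type protease inhibitor, went from 8.41, 7.90 and 8.33 to 10.28, 10.04 and 9.81 (3.55-fold, SE 0.24 on log2 1.83, adjusted p = 2.65e-05), and its changes of 1.51 and 1.56 in the other fits were also called. Itih4, a heavy chain of the inter-alpha-trypsin inhibitor family, read 8.16, 8.37 and 8.66 untreated and 9.82, 9.59 and 9.29 at 12 h. Its 2.25-fold rise (SE 0.18 on log2 1.17, adjusted p = 0.000151) was called in all 3 fits. Hp, haptoglobin, which binds free haemoglobin, was already bright at 10.61, 10.40 and 10.53 and reached 11.63, 11.77 and 11.77 (2.32-fold, SE 0.19 on log2 1.21). Lrg1, a secreted leucine-rich glycoprotein, rose 4.15-fold from 8.64, 7.91 and 8.22 to 10.36, 10.35 and 10.23 (log2 2.05, SE 0.33, adjusted p = 0.000204). Hp and Lrg1 were called against the Aag untreated arrays (0.81 and 1.52) but not after adjustment for array set (adjusted p = 0.24 and 0.21).

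Other members of the acute phase list were not called against the Aag untreated arrays of the lower set. Saa4, the constitutive serum amyloid A, read 4.87, 5.04 and 4.84 untreated and 6.36, 7.05 and 6.83 at 12 h (3.55-fold, adjusted p = 0.00476). The Aag untreated arrays of the lower set read 6.86 and 6.68, at the level of the treated WT arrays, and those of the high set 4.74 and 5.38. The Saa4 change was 0.12 after adjustment for array set and -0.02 against the lower set. Crp, the C-reactive protein, a weak acute phase protein in mice, was not called (log2 -0.19, SE 0.12, adjusted p = 0.295), and its sign turned to 0.20 against the Aag untreated arrays. The remaining 5 members of the list that rose, named like Crp after their values were seen, were Apcs, Saa3, Cd14, Il6ra and Lbp. Apcs, serum amyloid P, the main pentraxin of the acute phase in mice, read 6.23, 6.39 and 6.26 untreated and 8.16, 7.87 and 6.91 at 12 h (log2 1.35, SE 0.45, adjusted p = 0.0341). Saa3, a serum amyloid A made in inflammation also outside hepatocytes, read 4.79, 4.98 and 4.94 untreated and 5.85, 5.84 and 5.87 at 12 h (log2 0.95, SE 0.32, adjusted p = 0.0384). Lbp, which binds bacterial lipopolysaccharide (log2 0.55, SE 0.17), Cd14, its co-receptor (0.68, SE 0.17), and Il6ra, the receptor of the cytokine interleukin 6 (0.57, SE 0.15), rose by less. The call on Il6ra held with any 1 of the 6 arrays left out, and each of the other calls was lost without at least 1 of them. With 1 array left out the change ran from 1.09 to 1.72 for Apcs, 0.89 to 0.99 for Saa3, 0.43 to 0.67 for Lbp and 0.58 to 0.75 for Cd14. Without 12 h replicate 1 the adjusted p was 0.149 for Apcs, 0.0913 for Saa3, 0.0746 for Lbp and 0.0504 for Cd14, and without 12 h replicate 2 it was 0.106 for Apcs, 0.0881 for Saa3 and 0.0835 for Lbp. Without untreated replicate 1, 2 or 3 it was 0.085, 0.0642 and 0.0688 for Apcs and 0.108, 0.0686 and 0.0675 for Saa3, without untreated replicate 2 it was 0.115 for Lbp, and without 12 h replicate 3 it was 0.0908 for Saa3. None of the 5 was called after adjustment for array set or against the Aag untreated arrays, where Apcs stood at 1.97 and 1.53 and Il6ra at 0.17 and 0.07.

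**Figure D3:**
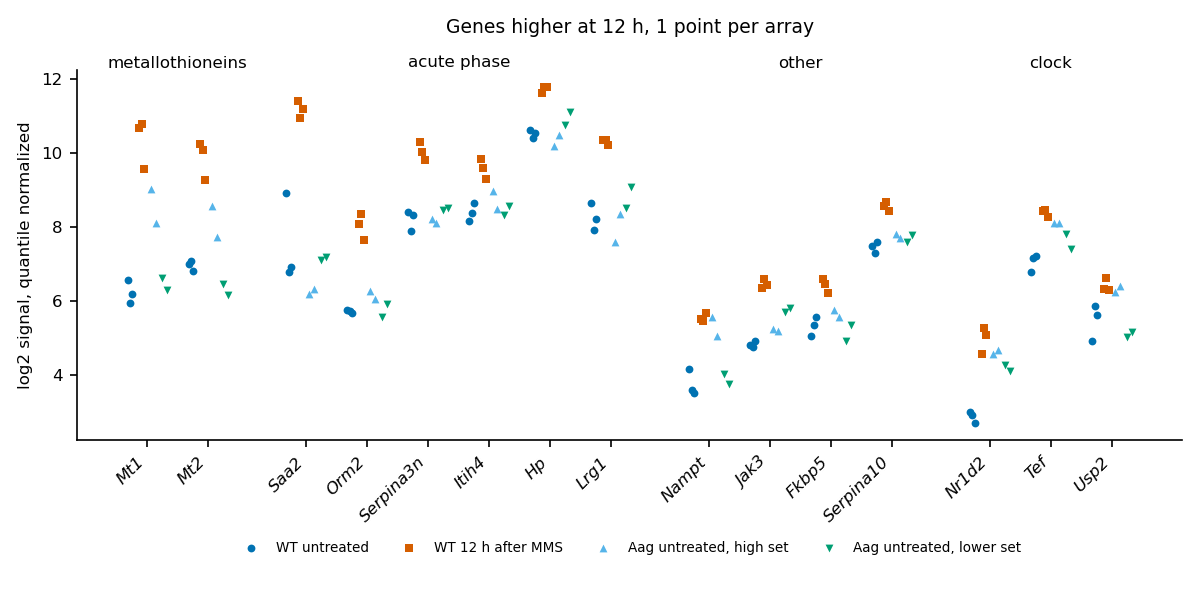
Log2 signals, quantile normalized, of genes higher at 12 h, with 1 point per array for WT untreated (circles), WT 12 h (squares), Aag untreated of the high set (upward triangles) and Aag untreated of the lower set (downward triangles). For Mt1, Saa2, Orm2, Serpina3n and Itih4 the 3 squares lie above all other points, whereas for Nr1d2 the Aag untreated arrays lie well above the WT untreated arrays and reach the lowest square.

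Beyond those lists, several regulators and enzymes rose against both control groups. Nampt, the rate-limiting enzyme of the salvage route to NAD, read 4.15, 3.59 and 3.53 untreated and 5.51, 5.47 and 5.68 at 12 h. Its 3.47-fold rise (log2 1.80, SE 0.34, adjusted p = 0.000868) was 3.21 after adjustment for array set and 1.65 against the Aag untreated arrays, both called. The Aag untreated arrays of the high set read 5.58 and 5.05, at or near the level of the 12 h arrays. Jak3, a cytokine receptor kinase read here by a probe set shared between transcripts, rose 3.08-fold from 4.80, 4.77 and 4.92 to 6.35, 6.58 and 6.43 (SE 0.17 on log2 1.62, adjusted p = 1.98e-06), and the change against the Aag untreated arrays was smaller at 0.69 (adjusted p = 0.027). Serpina10, the protein Z-dependent inhibitor of coagulation factor Xa, rose 2.15-fold from 7.49, 7.30 and 7.58 to 8.57, 8.67 and 8.44 (SE 0.13 on log2 1.10, adjusted p = 5.74e-06). St3gal5, the synthase of ganglioside GM3, rose 2.31-fold (SE 0.24 on log2 1.21), Ak4, a mitochondrial adenylate kinase, 2.20-fold (SE 0.17 on log2 1.14) and Tnfrsf1b, a receptor of tumour necrosis factor, by log2 0.75 (SE 0.13). Serpina10, St3gal5, Ak4 and Tnfrsf1b were each called in all 3 fits. For St3gal5 the Aag untreated arrays of the high set read 7.39 and 7.37, within the range of the 12 h arrays (7.07 to 7.54).

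Among the 10 largest rises whose probe sets moved one way, Mrm3, Gfra1 and the clock gene Nr1d2, described below, were also not called against the lower set of untreated Aag liver. Mrm3, a methyltransferase of mitochondrial ribosomal RNA, read 2.66, 1.91 and 2.09 untreated, 4.69, 4.22 and 4.32 at 12 h, and 5.09 and 4.54 in the Aag untreated arrays of the lower set. Gfra1, a receptor subunit for GDNF, read 3.59, 3.71 and 3.92 untreated, 5.50, 5.80 and 5.36 at 12 h, and 5.09 and 5.36 in those Aag arrays. Mrm3 and Gfra1 are dim in liver. Their changes of 2.19 (SE 0.40) and 1.81 (SE 0.38) became 0.18 and 0.55 after adjustment for array set, and -0.41 and 0.33 against the lower set, none of them called.

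Among genes that fell, those called against both control groups included enzymes of methyl group, glycine and sulfur metabolism. Bhmt, which remethylates homocysteine with betaine, read 10.67, 10.53 and 10.38 in untreated WT liver and 8.56, 8.29 and 8.46 at 12 h. It was 4.26-fold lower (log2 -2.09, SE 0.22, adjusted p = 1.98e-06), with -2.56 for the array set term and -1.71 against the Aag untreated arrays (10.17 and 10.12). A dimmer probe set of Bhmt, 5.66, 5.49 and 5.45 untreated and 5.69, 5.70 and 5.64 at 12 h, gave a log2 change of 0.14 with unadjusted p = 0.332. Agxt, which detoxifies glyoxylate to glycine, fell 2.26-fold from 7.44, 7.18 and 7.05 to 5.92, 6.23 and 6.00 (SE 0.20 on log2 -1.18, adjusted p = 0.000296). Cdo1, which commits cysteine to taurine synthesis, fell 2.03-fold from 9.10, 9.28 and 9.08 to 8.12, 8.30 and 7.96 (SE 0.20 on log2 -1.02, adjusted p = 0.000987). Ethe1, a mitochondrial persulfide dioxygenase that clears sulfide, fell 3.21-fold from 8.46, 7.99 and 7.94 to 6.27, 6.45 and 6.60 (SE 0.20 on log2 -1.68, adjusted p = 9.73e-06). In each of these genes every treated array lay below every untreated WT array. Bhmt, Agxt and Ethe1 were called in all 3 fits, and Cdo1 missed the call after adjustment for array set (log2 -0.94, adjusted p = 0.13).

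Over the list of the methionine cycle and methyl groups, 2 of 21 tested genes rose and 6 fell (median -0.15). On adjustment for array set 1 rose and 3 fell, and against the Aag untreated arrays 0 rose and 3 fell, where 1.28% and 0.693% of all genes fell. Dmgdh, which takes a methyl group from dimethylglycine, the product of Bhmt, fell 1.60-fold (SE 0.13 on log2 -0.68, adjusted p = 0.00118). Srm, the spermidine synthase, rose 1.80-fold (SE 0.16 on log2 0.85, adjusted p = 0.000822). Dmgdh and Srm were called after adjustment for array set and not against the Aag untreated arrays (adjusted p = 0.30 and 0.17). Gldc, the glycine decarboxylase, read 6.56, 6.40 and 6.72 untreated and 5.39, 5.76 and 5.69 at 12 h (log2 -0.95, SE 0.32, adjusted p = 0.0393). Its groups did not overlap, but its call was lost without any one of the 6 arrays (adjusted p = 0.0875, 0.0596 and 0.0991 without untreated replicates 1, 2 and 3, and 0.134, 0.0696 and 0.0777 without 12 h replicates 1, 2 and 3). The change of Gldc was larger in the other fits, -2.37 after adjustment for array set and -1.30 against the Aag untreated arrays, both called. The Aag untreated arrays of the high set read 5.47 and 5.52, within the range of the 12 h arrays. Among breakdown enzymes of tyrosine, phenylalanine and tryptophan 0 of 10 rose and 2 fell, and among those of other amino acids 0 of 18 rose and 4 fell, where 10.2% of all genes fell. Against the Aag untreated arrays the lists had 0 and 1 gene lower. Hgd, the homogentisate dioxygenase of tyrosine breakdown, fell 1.68-fold (SE 0.15 on log2 -0.75, adjusted p = 0.00104), and its difference from the Aag untreated arrays was 0.00.

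Liver genes of other kinds fell with them. Hsd17b2, which inactivates oestradiol and testosterone, read 6.74, 6.62 and 6.30 untreated and 4.61, 4.80 and 4.94 at 12 h, 3.41-fold lower (SE 0.21 on log2 -1.77, adjusted p = 8.02e-06). Car3, a carbonic anhydrase abundant in hepatocytes and muscle, fell 3.14-fold from 10.36, 9.71 and 9.78 to 8.59, 8.15 and 8.16 (SE 0.29 on log2 -1.65, adjusted p = 0.000463). Ddc, the aromatic amino acid decarboxylase, fell 2.64-fold (SE 0.31 on log2 -1.40, adjusted p = 0.0032). Transthyretin (Ttr), a plasma protein known to fall in inflammation, and the murinoglobulin Mug2 also went down. Ttr went from 9.29, 9.16 and 9.18 to 8.40, 8.20 and 8.43 (1.82-fold lower, SE 0.11 on log2 -0.86, adjusted p = 1.13e-05). Mug2, read by a probe set that can bind related family members, went from 9.63, 9.47 and 9.71 to 8.57, 8.55 and 8.56 (2.06-fold lower, SE 0.14 on log2 -1.04, adjusted p = 4.18e-05). Hsd17b2, Car3, Ddc, Ttr and Mug2 were each called in all 3 fits. For Ddc the Aag untreated arrays of the high set read 4.76 and 4.75, within the range of the 12 h arrays (4.24 to 5.08). Alb, albumin, named after its value was seen, was not called (log2 0.03, SE 0.11, adjusted p = 0.865). Of 23 tested secreted plasma proteins 2 rose and 4 fell, of 15 complement genes 0 rose and 3 fell, and of 19 coagulation genes 2 rose and 3 fell. Among all genes 10.9% rose and 10.2% fell. Mbl1, the mannose-binding lectin (log2 -0.73, SE 0.18), and the coagulation factor F10 (-0.85, SE 0.20) fell and the factor F7 rose (0.68, SE 0.16). Mbl1, F10 and F7 were not called in the other fits, with changes of -0.10, -0.45 and 0.39 after adjustment for array set and of -0.18, -0.35 and 0.28 against the Aag untreated arrays.

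Psen2, a presenilin of the gamma-secretase complex read by a probe set shared between transcripts, went from 7.96, 7.63 and 7.59 to 5.46, 5.83 and 6.12 (3.79-fold lower, SE 0.25 on log2 -1.92, adjusted p = 1.84e-05), and was called in all 3 fits. Tubb2a, a beta-tubulin, went from 7.42, 7.25 and 7.45 to 4.76, 4.83 and 5.12 (5.54-fold lower, SE 0.27 on log2 -2.47, adjusted p = 4.03e-06), also called in all 3 fits. The brightest probe set of Tubb2a can bind related family members, and its other probe set read 5.34, 4.87 and 4.75 untreated and 5.55, 5.30 and 5.27 at 12 h, a change of the opposite sign (log2 0.38, unadjusted p = 0.114). By the brightest probe set the Aag untreated arrays read 5.57 and 6.54 in the lower set and 5.22 and 4.85 in the high set, so untreated liver of the 2 genotypes differed for Tubb2a. Cyp2c70, the mouse enzyme that makes muricholic acids, fell 3.64-fold from 9.15, 9.02 and 8.65 to 6.76, 6.96 and 7.51 (SE 0.33 on log2 -1.86, adjusted p = 0.000385). Rpa2, a subunit of the replication protein A that coats single-stranded DNA, fell from 5.97, 6.30 and 5.73 to 3.90, 3.91 and 3.74 (log2 -2.15, SE 0.22, adjusted p = 1.98e-06). Otulinl went down 3.84-fold (SE 0.24 on log2 -1.94, adjusted p = 1.34e-05) and Pla2g4f, a cytosolic phospholipase, 3.48-fold (SE 0.21 on log2 -1.80, adjusted p = 8.02e-06). Cyp2c70, Rpa2, Otulinl and Pla2g4f were called after adjustment for array set and not against the Aag untreated arrays, where their changes were -0.95, -0.71, -0.73 and -0.70 (adjusted p = 0.31, 0.13, 0.19 and 0.13).

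**Figure D4:**
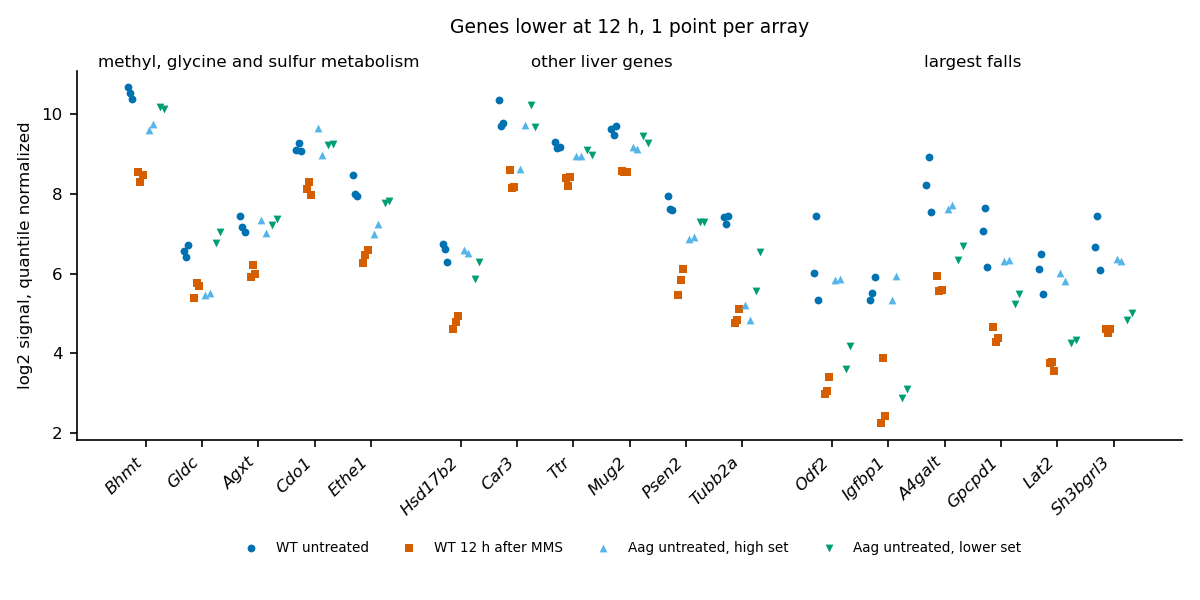
Log2 signals, quantile normalized, of genes lower at 12 h, with 1 point per array for WT untreated (circles), WT 12 h (squares), Aag untreated of the high set (upward triangles) and Aag untreated of the lower set (downward triangles). For Bhmt, Agxt and Ttr the squares lie below all other points; for Odf2, Igfbp1, Lat2 and Sh3bgrl3 the downward triangles lie nearer to the squares than to the circles.

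For most of the 10 largest falls among genes with no opposing probe set, the call did not hold in the other fits. Tubb2a and Bhmt, with falls of similar size, have an opposing probe set and are not among these 10. Odf2, a protein of centrioles and sperm tail fibres, read 6.02, 7.43 and 5.33 untreated and 2.98, 3.05 and 3.42 at 12 h (log2 -3.11, SE 0.47, adjusted p = 0.000106). Igfbp1, which binds and restrains insulin-like growth factors, read 5.35, 5.53 and 5.92 untreated and 2.25, 3.89 and 2.44 at 12 h (log2 -2.74, SE 0.74, adjusted p = 0.0115, and 0.056 without 12 h replicate 1). Untreated Aag liver divided by array set for both genes, with Odf2 at 3.60 and 4.19 in the lower set against 5.84 and 5.87 in the high set, and Igfbp1 at 2.89 and 3.10 against 5.33 and 5.93. The same held for A4galt, the synthase of globotriaosylceramide (6.33 and 6.68 against 7.62 and 7.72), Gpcpd1, a glycerophosphocholine phosphodiesterase (5.23 and 5.49 against 6.31 and 6.34), Lat2, an adaptor of immune receptors (4.27 and 4.34 against 6.01 and 5.82), and Sh3bgrl3 (4.84 and 5.02 against 6.36 and 6.31). Pigk, a subunit of the GPI transamidase, and Mgst2, a microsomal glutathione transferase, showed it as well (5.41 and 5.73 against 6.22 and 6.34, and 3.59 and 3.89 against 4.82 and 5.02). In WT liver the changes of these 6 genes ran from -2.06 (Mgst2) to -2.53 (A4galt), with adjusted p of 0.000336 or less. None of the 8 genes was called after adjustment for array set or against the Aag untreated arrays of the lower set. The changes of the 8 lay from -1.58 (Pigk) to -0.10 (Igfbp1) after adjustment for array set. Against the Aag untreated arrays they lay from -1.05 (Pigk) to -0.13 (Igfbp1).

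Many of the large falls came from 1 class of probe set. A suffix r marks probe sets for which design rules were relaxed when the array was made. Of the 8 genes just described, Odf2, A4galt, Gpcpd1, Pigk and Mgst2 were read by such probe sets and Igfbp1, Lat2 and Sh3bgrl3 were not. Such probe sets served 229 of the 5487 genes tested (4.17%), yet 35 of the 113 genes called lower by at least 2-fold. These 35 are 15.3% of the 229 genes, against 1.34% (63 of 4689) of genes read by probe sets with no suffix. Of genes called higher by at least 2-fold, 3 had an r suffix (1.31% of the 229) and 44 no suffix (0.938% of the 4689). Among the 51 genes called against both control groups 0 had an r suffix and 40 had none. What part the probe set class had in these falls was not tested.

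The clock list held several of the larger rises. The liver clock is a loop of transcription factors, in which Nr1d2 (REV-ERB beta) and Cry1 act as repressors and Tef and Dbp drive output genes in a daily rhythm. Of 16 tested genes 6 rose (37.5%) and 1 fell (6.25%) and 9 were not called, where 10.9% of all genes rose and 10.2% fell. The median change was 0.75 against 0.04 for all genes. After adjustment for array set 8 rose and 0 fell (median 1.34), and against the Aag untreated arrays 3 rose and 1 fell (median 0.74). Of all genes, 1.75% and 0.601% rose in these 2 fits. Nr1d2 read 3.01, 2.92 and 2.70 untreated and 4.57, 5.26 and 5.09 at 12 h (log2 2.10, SE 0.35, adjusted p = 0.000268). Tef read 6.79, 7.17 and 7.22 untreated and 8.43, 8.47 and 8.28 at 12 h (2.52-fold higher, SE 0.20 on log2 1.33, adjusted p = 8.56e-05). Neither gene was called against the Aag untreated arrays (0.77 and 0.78, adjusted p = 0.53 and 0.062). Cry1 fell 1.91-fold (SE 0.18 on log2 -0.93, adjusted p = 0.000868), and the sign turned to 0.25 against the Aag untreated arrays. Lpin1, a phosphatidate phosphatase with a daily rhythm, read 4.95, 4.87 and 6.82 untreated and 7.60, 7.34 and 6.92 at 12 h (log2 1.74, SE 0.61, adjusted p = 0.0457). The call on Lpin1 was lost without untreated replicate 1 or 2 (adjusted p = 0.167 and 0.162) and without 12 h replicate 1, 2 or 3 (0.138, 0.106 and 0.0682). The deubiquitinase Usp2, named after its values were seen, read 4.91, 5.88 and 5.63 untreated and 6.34, 6.62 and 6.30 at 12 h (log2 0.95, SE 0.28, adjusted p = 0.0213), a call lost without untreated replicate 1 (adjusted p = 0.135) or 12 h replicate 2 (0.0846). Dbp, named after its values were seen, was not called against WT untreated liver (log2 1.41, SE 0.51, adjusted p = 0.0543). It was called after adjustment for array set (4.20, adjusted p = 1.8e-08) and against the Aag untreated arrays (1.49, adjusted p = 0.00081). The labels give no hour of the day for any array, so time of day was not tested.

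Glucocorticoids act on liver through a receptor whose targets include Fkbp5, its own co-chaperone, and enzymes of glucose output. Of 25 tested targets 8 rose (32%) and 3 fell (12%), against 10.9% and 10.2% of all genes. The median was 0.29, and the list shares Mt1, Mt2, Agxt and Igfbp1 with the results above. After adjustment for array set 5 rose and 1 fell, and against the Aag untreated arrays 3 rose and 1 fell (median -0.01), where 1.75% and 0.601% of all genes rose. Fkbp5 read 5.06, 5.36 and 5.58 untreated and 6.59, 6.45 and 6.21 at 12 h (2.12-fold higher, SE 0.20 on log2 1.09, adjusted p = 0.000517), and was called in all 3 fits. Among 18 tested genes of glucose output and glycolysis 3 rose and 3 fell. G6pc, the glucose-6-phosphatase that releases glucose, read 9.40, 9.95 and 10.28 untreated and 7.80, 8.73 and 8.26 at 12 h (3.07-fold lower, SE 0.38 on log2 -1.62, adjusted p = 0.00464). The Aag untreated arrays read 7.82 to 8.07 in both sets, and the change of G6pc against the lower set was 0.41. Ldha, a lactate dehydrogenase subunit, rose 1.99-fold (SE 0.17 on log2 0.99), and Hnf4a, a transcription factor of hepatocyte identity, rose 2.00-fold (SE 0.26 on log2 1.00). Ldha and Hnf4a were not called in the other fits, where Ldha was at 0.28 and 0.43 and Hnf4a at -0.23 and -0.06.

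Lipid genes moved in both directions. Targets of PPARalpha, the nuclear receptor that drives fatty acid oxidation in fasting, had 5 of 33 higher (15.2%) and 3 lower (9.09%). Of all genes 10.9% were higher and 10.2% lower, and the median was 0.04, as for all genes. Adjusted for array set, 7 were higher and 0 lower (median 0.51), and against the Aag untreated arrays 0 were higher and 0 lower (median 0.07). Of all genes, 1.75% and 0.601% were higher in these 2 fits. Cpt1a, which admits fatty acids to mitochondria, read 7.08, 6.94 and 7.60 untreated and 8.63, 8.77 and 8.10 at 12 h (2.44-fold higher, SE 0.22 on log2 1.29, adjusted p = 0.000292). Pex11a, a peroxisome division protein, rose 1.84-fold (SE 0.15 on log2 0.88, adjusted p = 0.000238). The change of Cpt1a against the Aag untreated arrays was 0.47 (adjusted p = 0.45) and that of Pex11a 0.32 (adjusted p = 0.50). Cholesterol synthesis and uptake had 1 of 18 higher and 3 lower (median -0.17), with Ebp, a sterol isomerase, 2.23-fold lower (SE 0.28 on log2 -1.16). Ebp was not called after adjustment for array set (-0.29, adjusted p = 0.80) or against the Aag untreated arrays (-0.46, adjusted p = 0.65). Fatty acid and triglyceride synthesis had 1 of 21 higher, Lpin1, and 1 lower, Elovl3, an elongase of very long chain fatty acids (log2 -1.21, SE 0.28, adjusted p = 0.0039). Elovl3 was also called after adjustment for array set (-2.22) and not against the Aag untreated arrays (-0.68, adjusted p = 0.24). Apolipoproteins and lipoprotein handling had 2 of 23 higher (8.7%) and 6 lower (26.1%). Among the latter were the HDL-bound paraoxonase Pon1 (1.62-fold lower, SE 0.16 on log2 -0.69) and the apolipoprotein Apom (1.45-fold lower, SE 0.12 on log2 -0.53). Pon1 was at -0.68 and Apom at -0.29 after adjustment for array set. Against the Aag untreated arrays they were at -0.64 and -0.50, with no call in either fit. Over this list 1 gene was higher and 0 were lower in each of the 2 fits, and its median against WT untreated liver was -0.03. Bile acid synthesis and transport had 0 of 16 higher and 3 lower. Hsd3b7, a dehydrogenase of bile acid synthesis, fell 1.76-fold from 10.26, 10.26 and 10.10 to 9.32, 9.38 and 9.49 (SE 0.18 on log2 -0.81, adjusted p = 0.00318) and was called in all 3 fits. Its Aag untreated arrays read 9.49 and 9.56 in the high set and 10.26 and 10.17 in the lower set. Akr1c6, an aldo-keto reductase of steroids, fell 1.69-fold (SE 0.16 on log2 -0.75) and was called against the Aag untreated arrays (-0.96) but not after adjustment for array set (-0.72, adjusted p = 0.16).

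DNA repair genes are the ones that MMS damage calls on most directly. In base excision and alkylation repair 0 of 12 tested genes rose and 5 fell (41.7%, where 10.2% of all genes fell), with a median of -0.22. After adjustment for array set 0 rose and 1 fell (1.28% of all genes fell), and against the Aag untreated arrays 0 rose and 0 fell (median -0.01). The largest fall of the list was that of Rpa2, described above (log2 -2.15). Rpa2 was called after adjustment for array set and not against the Aag untreated arrays (-0.71, adjusted p = 0.13). Mpg itself was dim, at 2.82, 2.54 and 2.83 untreated and 2.76, 2.61 and 2.62 at 12 h, and did not pass the brightness filter. With no filter its change was -0.07 (SE 0.11, limma adjusted p = 0.73). Mgmt, the O6-methylguanine methyltransferase (3.36 to 3.57 untreated and 3.44 to 3.55 at 12 h), and Polb, the gap-filling polymerase, did not pass it either (0.06 and -0.20 with no filter, adjusted p = 0.78 and 0.26). Parp1, which senses strand breaks, read 4.99, 5.39 and 4.75 untreated and 4.41, 4.29 and 4.18 at 12 h (1.68-fold lower, SE 0.18 on log2 -0.75, adjusted p = 0.00511). Xrcc1, the scaffold of single-strand break repair, read 5.48, 6.06 and 6.01 untreated and 5.22, 5.08 and 5.18 at 12 h (log2 -0.69, SE 0.22, adjusted p = 0.0297). That call was lost without untreated replicate 2 (adjusted p = 0.108) or 3 (0.0892) and without 12 h replicate 1, 2 or 3 (0.0619, 0.0916 and 0.0698). Ung, the uracil glycosylase, was 2.70-fold lower by its brightest probe set, which has an r suffix (SE 0.25 on log2 -1.43). Its other probe set rose, from 4.35, 3.98 and 4.38 to 4.90, 5.11 and 4.90 (log2 0.73). Apex1, the nuclease that cuts abasic sites, was not called (log2 -0.31, SE 0.22, adjusted p = 0.339). Against the Aag untreated arrays Parp1 was at -0.37 and Xrcc1 at -0.12, neither of them called.

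p53 is the transcription factor that answers DNA damage. Of 18 tested genes of p53 and its targets 2 rose and 2 fell, 11.1% each, near the 10.9% and 10.2% of all genes (median 0.12), and 0 were called in either direction in the other fits. Cdkn1a, the p21 inhibitor of cyclin-dependent kinases and a main p53 target, read 6.13, 6.66 and 6.80 untreated and 6.39, 6.20 and 6.25 at 12 h, and the groups overlapped (log2 -0.25, SE 0.17, adjusted p = 0.32). Mdm2, the ubiquitin ligase that p53 induces against itself, read 4.07, 3.74 and 3.80 untreated and 3.76, 4.13 and 4.10 at 12 h (log2 0.13, SE 0.18, adjusted p = 0.671). A p that misses the threshold does not show equal levels, and the number of arrays limits what could be seen. Ccng1, another target, did not pass the brightness filter, and its change with no filter was 0.23 (SE 0.20, limma adjusted p = 0.455). The 4 called members were Ephx1, Trp63, Zmat3 and Plk3. Ephx1, the microsomal epoxide hydrolase, rose 1.68-fold (SE 0.18 on log2 0.75, adjusted p = 0.00551), and the p53 relative Trp63 fell (log2 -1.08, SE 0.22, adjusted p = 0.00131). The change of Ephx1 against the Aag untreated arrays was 0.05 and that of Trp63 was -0.28. Other DNA repair and checkpoint genes had 3 of 14 higher and 0 lower, replication licensing and DNA synthesis 0 of 19 higher and 3 lower, and cyclins and mitosis 2 of 20 higher and 3 lower. In the fit adjusted for array set or against the Aag untreated arrays, at most 1 gene of these 3 lists was called in either fit.

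Genes of protein quality and energy supply gave at most 1 call per list in the other fits, which call 3.03% and 1.29% of all genes. In the unfolded protein response, which expands endoplasmic reticulum chaperones, 2 of 22 rose and 0 fell. Its median was 0.38, against 0.03 after adjustment for array set and 0.17 against the Aag untreated arrays. Heat shock proteins had 1 of 24 higher and 2 lower (median -0.28), and the proteasome 1 of 34 higher and 5 lower (median -0.26). Psmd2, a base subunit of the proteasome cap, fell 1.74-fold (SE 0.15 on log2 -0.80), and its change against the Aag untreated arrays was 0.20. Respiratory chain subunits had 2 of 49 higher (4.08%) and 11 lower (22.4%), against 10.9% and 10.2% of all genes, with a median of -0.31. Atp5g2, a ring subunit of ATP synthase, read 6.27, 6.30 and 6.04 untreated and 5.17, 5.40 and 5.35 at 12 h (1.86-fold lower, SE 0.15 on log2 -0.89, adjusted p = 0.000301). Sdhb, the iron-sulfur subunit of succinate dehydrogenase, fell 1.68-fold (SE 0.15 on log2 -0.75, adjusted p = 0.00107). After adjustment for array set 0 chain subunits rose and 1 fell, with a median of 0.02, and against the Aag untreated arrays 0 rose and 0 fell, with a median of -0.19. Atp5g2 and Sdhb were at -0.33 and -0.31 with the term, neither called. Ribosomal proteins had 1 of 28 higher and 3 lower (median -0.14), and translation factors 4 of 36 higher and 4 lower. The translation factor Eif4h fell (log2 -0.77, SE 0.11, adjusted p = 4.93e-05), and was called after adjustment for array set (-0.76) and not against the Aag untreated arrays (-0.23, adjusted p = 0.57). Eef1b2, read by an r-suffix probe set, fell 2.67-fold (SE 0.26 on log2 -1.42) and was called in neither of them (-0.71 and -0.28, adjusted p = 0.37 and 0.87).

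Genes of xenobiotic and antioxidant defence were mixed. NRF2 targets, which include glutathione synthesis, had 4 of 26 higher and 4 lower (15.4% each), with a median of 0.11. Of all genes 10.9% were higher and 10.2% lower. Gclm, the modifier subunit of glutamate-cysteine ligase, read 5.69, 5.59 and 5.75 untreated and 6.42, 6.70 and 6.54 at 12 h (1.84-fold higher, SE 0.14 on log2 0.88, adjusted p = 0.000189). The Aag untreated arrays of the lower set read 6.46 and 6.54, so the change of Gclm against them was 0.05. Keap1, the inhibitor of NRF2, fell from 4.47, 4.03 and 4.59 to 3.21, 3.04 and 3.05 (log2 -1.26, SE 0.18, adjusted p = 5.62e-05), and was at -0.17 against those arrays. Xenobiotic P450s and flavin monooxygenases had 2 of 25 higher and 4 lower. Cyp3a13, a drug-metabolizing P450, rose 2.57-fold from an even 6.30, 6.25 and 6.23 to 7.55, 7.81 and 7.50 (SE 0.23 on log2 1.36, adjusted p = 0.000296). It was called after adjustment for array set (1.37, adjusted p = 0.044) and not against the Aag untreated arrays (0.78, adjusted p = 0.19). Glutathione transferases had 1 of 17 higher and 3 lower, and conjugation enzymes 2 of 20 higher and 1 lower. Slc7a2, a carrier of cationic amino acids, rose 2.46-fold (SE 0.27 on log2 1.30, adjusted p = 0.0019) in a urea cycle list with 2 of 9 higher and 1 lower, and was at 0.10 against the Aag untreated arrays.

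**Figure D5:**
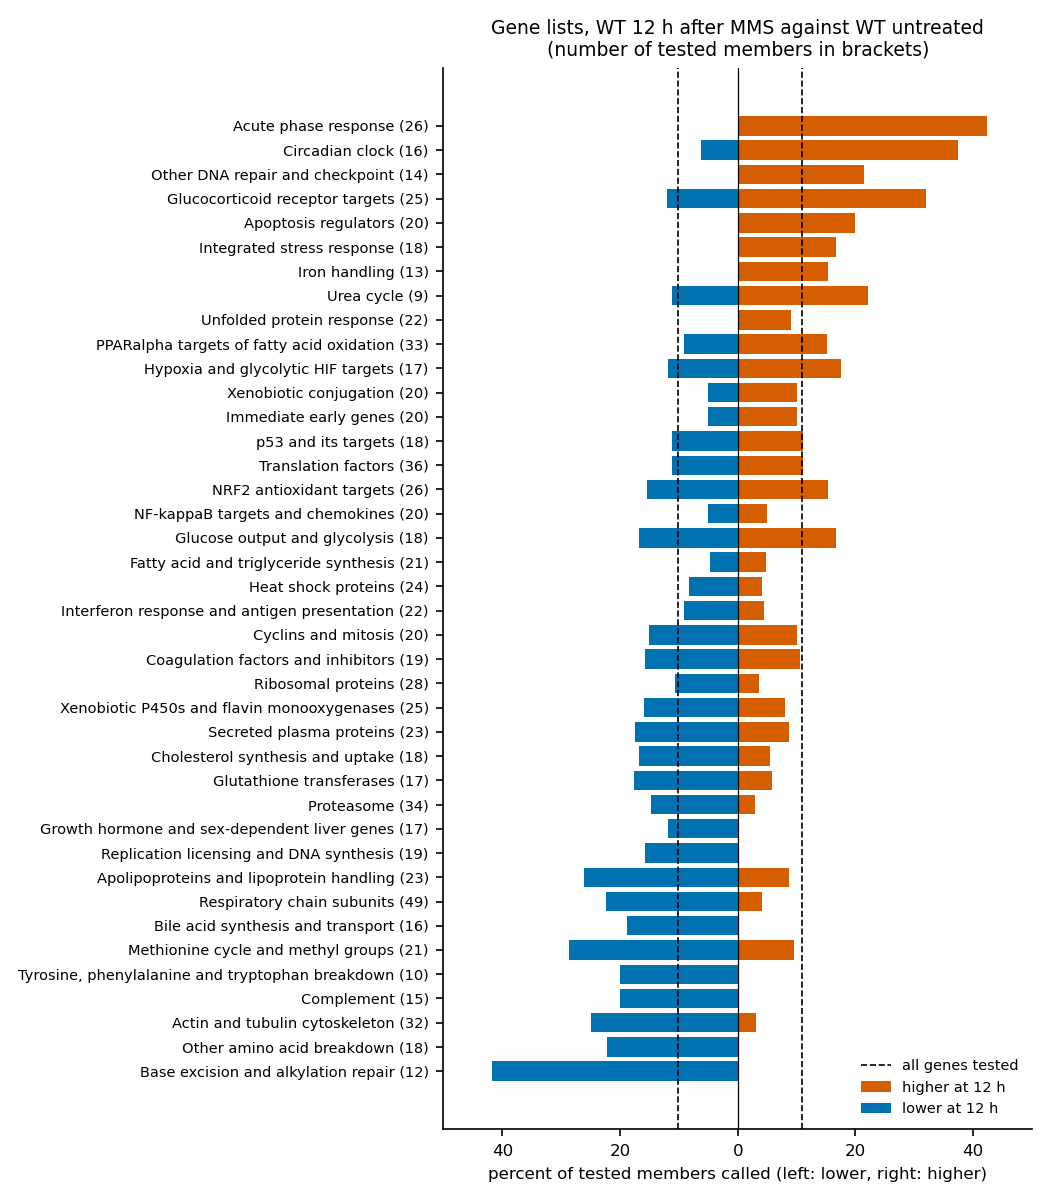
Percent of the tested members of each gene list that were called lower (left) or higher (right) at 12 h against WT untreated liver, for lists with 9 or more tested members. Dashed lines mark the shares among all 5487 genes tested, 10.9% higher and 10.2% lower; the acute phase, circadian clock and glucocorticoid lists extend furthest to the right and base excision repair furthest to the left.

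Markers of the cell types of liver bear on whether tissue make-up moved with treatment. In bulk liver, fewer cells of a type and less RNA per cell cannot be told apart. Hepatocyte markers were the brightest list, with mean levels of 9.63 to 9.80 in untreated arrays, 9.58 to 9.66 at 12 h and 9.73 to 9.75 in the Aag untreated arrays of the lower set, and 1 of 9 was higher and 2 lower. Kupffer cell and macrophage markers had 1 of 14 higher and 3 lower, with list means of 4.89 to 5.24 untreated, 4.79 to 5.09 at 12 h and 5.31 to 5.43 in those Aag arrays. C1qa, a complement subunit made by macrophages, read 6.34, 5.58 and 6.09 untreated and 4.92, 5.66 and 5.26 at 12 h. The groups overlapped, and the C1qa call (log2 -0.72, SE 0.20, adjusted p = 0.0137) was lost without untreated replicate 1 (adjusted p = 0.0848) or 12 h replicate 1 (0.0951), while it was called against the Aag untreated arrays (-1.10, adjusted p = 0.012). Stellate cell and matrix markers had 2 of 17 higher (11.8%) and 6 lower (35.3%), where 10.9% of all genes were higher and 10.2% lower. The collagens Col3a1 (2.33-fold lower, SE 0.21 on log2 -1.22, adjusted p = 0.000388) and Col4a1 (1.88-fold lower, SE 0.15 on log2 -0.91, adjusted p = 0.000248) were among the latter, and neither was called against the Aag untreated arrays (-0.85 and -0.56). Endothelial markers had 0 of 8 higher and 1 lower, which was Eng, endoglin (1.67-fold lower, SE 0.13 on log2 -0.74), at -0.39 and -0.31 in the other fits with no call. The actin and tubulin list had 1 of 32 higher (3.12%) and 8 lower (25%). Among the latter was Ezr, the membrane linker ezrin (log2 -1.87, SE 0.29, adjusted p = 0.000125), which was at -0.32 against the Aag untreated arrays.

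Markers of blood and of other cell types differed among lists. Neutrophil markers had 0 of 7 called in either direction, with list means of 5.16 to 5.41 untreated and 5.11 to 5.32 at 12 h, and T and NK cell markers had 0 of 7 called. B and plasma cell markers had 1 of 9 higher and 3 lower (33.3%, where 10.2% of all genes fell). In both other fits 0 of these markers were called. Their median was -0.27, against -0.19 after adjustment for array set and 0.04 against the Aag untreated arrays of the lower set. Cholangiocyte markers had 0 of 3 called and adipocyte markers 0 of 4 higher and 1 lower. Skeletal muscle markers had 0 of 10 higher and 2 lower, and pancreatic acinar markers 1 of 10 higher and 2 lower. Erythroid markers had 2 of 8 higher and 1 lower. The lower one, the haemoglobin gene Hba-a1, read 10.14, 8.77 and 8.78 untreated and 7.73, 7.64 and 7.32 at 12 h (3.18-fold lower, SE 0.26 on log2 -1.67, adjusted p = 0.000179). Untreated replicate 1 was the brightest array for Hba-a1, and the other untreated arrays still lay above all treated ones. Hba-a1 was called after adjustment for array set (-1.81, adjusted p = 0.018) and not against the Aag untreated arrays (-0.81, adjusted p = 0.27). The part of blood content in the other results was not tested.

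A second question was how liver at 12 h differed from liver at 6 h, a comparison among treated arrays of the lower set. The 2 arrays at 6 h were uneven in their added controls. Their hybridization control means were 6.42 (replicate 1) and 9.22 (replicate 2), against 8.42 to 9.13 at 12 h. The 3′ over 5′ excess of Actb was 0.88 and -0.24, against 0.19 to 0.35 at 12 h. What part this had in the comparison was not tested. Of 5487 genes 6 were called (0.109%), 3 higher (0.0547%) and 3 lower (0.0547%), and 288 had unadjusted p under 0.05. The count was 343 without 6 h replicate 2, 25 without 6 h replicate 1, and 0, 2 and 1 without 12 h replicates 1, 2 and 3. Upp2, a liver uridine phosphorylase, was 7.65 and 7.76 at 6 h and 9.90, 10.02 and 9.66 at 12 h (log2 2.15, SE 0.34, adjusted p = 0.010, and 0.0682 without 12 h replicate 1). Its untreated level lay between, at 8.46, 8.17 and 8.96. Creld2, an endoplasmic reticulum stress protein, was 7.55 and 5.99 at 6 h and 4.19, 4.48 and 4.37 at 12 h (log2 -2.42, SE 0.40, adjusted p = 0.0101). Pdia4, a disulfide isomerase of the same compartment, was 8.22 and 7.63 at 6 h and 6.84, 6.83 and 6.83 at 12 h (log2 -1.10, SE 0.20, adjusted p = 0.0216). The untreated levels were 4.34 to 4.64 for Creld2 and 6.29 to 6.67 for Pdia4, and neither was called at 12 h against untreated liver.

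Plin2, the lipid droplet coat protein, was 9.95 and 10.16 at 6 h and 9.11, 9.02 and 9.05 at 12 h (log2 -0.996, SE 0.18, adjusted p = 0.0216). Ngef, a guanine nucleotide exchange factor, was 5.70 and 6.14 at 6 h and 6.85, 6.80 and 6.86 at 12 h (log2 0.92, SE 0.18, adjusted p = 0.0389). Tcea3, a transcription elongation factor, was 3.91 and 4.10 at 6 h and 4.67, 4.65 and 4.84 at 12 h (log2 0.71, SE 0.13, adjusted p = 0.0216). In all 6 genes the 2 times did not overlap. The calls depended on single arrays. Without 12 h replicate 1 the adjusted p was 0.081 for Creld2, 0.093 for Pdia4, 0.0904 for Plin2, 0.158 for Ngef and 0.0904 for Tcea3. Without 12 h replicate 2 it was 0.119 for Pdia4 and for Plin2, 0.141 for Ngef and 0.0941 for Tcea3, and without replicate 3 it was 0.0536 for Creld2, 0.126 for Pdia4 and for Plin2, and 0.168 for Ngef and for Tcea3. Without 6 h replicate 1 it was 0.0733 for Creld2, 0.104 for Pdia4, 0.113 for Ngef and 0.0784 for Tcea3.

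The remaining comparisons asked how the 12 h liver differed from the 24 h liver and from Aag null liver at the same time. Each had 1 called gene (0.0182%), Serpina10, with 109 genes at unadjusted p under 0.05 for 24 h and 70 for Aag liver. Serpina10 was 8.57, 8.67 and 8.44 in WT liver at 12 h, 7.57 and 7.75 at 24 h, and 7.70 and 7.67 in Aag liver at 12 h. The difference was 0.90 from 24 h (SE 0.14, adjusted p = 0.00919) and 0.88 from Aag liver (SE 0.14, adjusted p = 0.0132). Over the series the 5 WT arrays at 6 h and 12 h read 8.44 to 8.83, the other 7 WT arrays 7.29 to 7.75 and all 16 Aag arrays 7.39 to 7.93, so that these 5 WT arrays stood apart. The call from 24 h was lost without 12 h replicate 1 (adjusted p = 0.0642) or 2 (0.115) and without 24 h replicate 1 (0.308) or 2 (0.0959). The call from Aag liver was lost without 12 h replicate 1 (0.0887) or 2 (0.161) and without Aag 12 h replicate 1 (0.436) or 2 (0.593). The remaining genes gave no call at these sizes of group, which does not show that they were alike. Mt1, Saa2, Orm2 and Bhmt were not called between 12 h and 24 h or between the genotypes at 12 h.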

How the data were processed

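Log2 signals of 28 arrays, 12488 probe sets each, came from the value table deposited by the authors. The log2 scale was inferred from the values (0.689 to 13.16), since the sources used here do not give image analysis, summarization or scaling. Array medians differed by up to 0.215, so the values were quantile normalized. The 66 control probe sets were left out of tests, probe sets of 1 gene symbol (10833; 396 had several and 1193 none) were kept, and the brightest of each of 8251 genes was used. A gene was tested where at least 2 arrays read it above their median (5487 genes).

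Group means of all 28 arrays in 10 groups were fitted with limma 3.58.1 (R 4.3.3; eBayes with trend, 18 residual degrees of freedom, Benjamini-Hochberg over all genes tested), and figures were drawn with matplotlib 3.10.9. The fit was checked on simulated data. A fold change is 2 to the power of the log2 difference, and the number of arrays limits the precision.

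Named genes are the 10 largest rises and falls with no overlap and no opposing probe set, the 8 largest each way also called after adjustment for array set, up to 4 members with the smallest p of each list, 13 fixed genes, and the 8 largest calls each way of the other comparisons. Ak4, Alb, Car3, Ddc, Ethe1, Gldc, Mug2 and St3gal5 were named after their values were seen, as were those said to be in the text. The arrays, the 53 gene lists and the rules were chosen with earlier results of these data known. The alternatives were scaling, filter, probe sets, block, array weights, arrays in the fit, trend, left-out arrays, array set and control group.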

Additional observations from a re-analysis of the deposited data

How the results depend on the processing

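Against WT untreated liver 1155 genes were called. The count was 1301 as deposited, 1097 with median centring, 1639 with no filter, 1064 with the mean of probe sets, 1379 with array weights, 1051 with only the groups compared, 1150 with no trend, 1044 without the 3 Aag arrays with female-typical transcripts, 887 against all untreated arrays and 681 to 1117 with 1 array left out. It was 166 after adjustment for array set and 71 against the Aag untreated arrays of the lower set, and the cause was not tested. Against those arrays the sign turned for Saa4 (-0.022), Mrm3 (-0.41), Cry1 (0.25), G6pc (0.41), Hgd (0.000311), Hnf4a (-0.058) and Psmd2 (0.20), and after adjustment for array set for Hnf4a (-0.23). The fit with the replicate block called 1067 genes, 1052 of them shared. Same-numbered deviations correlated at -0.20, -0.28 and 0.01, and different-numbered ones at -0.16 to 0.32. The deviations are centred within 3 arrays, so these values cannot tell whether the numbers pair the arrays, which the labels do not say. Against 6 h the 6 calls became 3 as deposited, 3 with the replicate block, 0 with median centring (208 genes at unadjusted p under 0.05), 0 with array weights (16), 0 with only the groups compared (123) and 0 to 343 with 1 array left out. Against 24 h the 1 call became 0 as deposited (87) or with median centring (84), 51 with array weights, 25 with only the groups compared, 2 without the female-typical arrays and 0 to 1 with 1 array left out. Against Aag 12 h it became 0 as deposited (57) or with median centring (59), 2 with the mean of probe sets, with no trend or without the female-typical arrays, 53 with array weights, 19 with only the groups compared and 0 to 2 with 1 array left out. The counts of 0 are from limma. Dim genes such as Mpg were tested only with no filter.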

Other observations

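Further genes called against both control groups were looked at after their values were seen. Apmap, a membrane protein of adipocytes and other cells, read 5.19, 5.49 and 5.33 untreated and 4.35, 4.39 and 4.14 at 12 h (2.06-fold lower, SE 0.11 on log2 -1.04, limma adjusted p = 1.98e-06) and was -0.70 against the Aag untreated arrays of the lower set. Crip2, a LIM domain protein, fell 1.84-fold (SE 0.14 on log2 -0.88). Gne, the enzyme that starts sialic acid synthesis, rose 1.68-fold from 6.70, 6.58 and 7.07 to 7.43, 7.72 and 7.45 (SE 0.14 on log2 0.75, adjusted p = 0.000562). Apmap, Crip2 and Gne were called in all 3 fits. Nrbp2, a pseudokinase, rose 2.53-fold from 4.18, 3.71 and 4.35 to 5.17, 5.58 and 5.52 (SE 0.18 on log2 1.34, adjusted p = 3.35e-05), Ifi30, a lysosomal thiol reductase of antigen processing, fell (log2 -0.83, SE 0.12), and Ly6e, an interferon-inducible membrane protein, fell 1.87-fold (SE 0.23 on log2 -0.91, adjusted p = 0.0502 without 12 h replicate 1). Nrbp2, Ifi30 and Ly6e missed the call after adjustment for array set (adjusted p = 0.061, 0.14 and 0.073).

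Alas1, the first and rate-limiting enzyme of haem synthesis in liver, read 8.58, 8.73 and 9.73 untreated and 10.83, 10.23 and 10.55 at 12 h, with no overlap, and was not called (log2 1.52, SE 0.57, adjusted p = 0.0618). Its untreated Aag arrays read 7.42, 8.59, 10.45 and 8.91, and its change was called after adjustment for array set (3.20, adjusted p = 0.028) and against the lower set (2.53, adjusted p = 0.026). Inflammatory lists other than the acute phase gave few calls, with 1 of 22 interferon and antigen presentation genes higher and 2 lower, and 1 of 20 targets of NF-kappaB higher and 1 lower. Of 20 apoptosis regulators 4 were higher and 0 lower, and 0 were called after adjustment for array set or against the Aag untreated arrays. Of 17 hypoxia targets 3 were higher and 2 lower, and of 18 integrated stress response genes 3 were higher and 0 lower. In each of these 2 lists at most 1 gene was called in either of the other fits. Of 20 immediate early genes 2 were higher and 1 lower, and of 13 iron genes 2 were higher and 0 lower. Of 17 growth hormone and sex-dependent genes 0 were higher and 2 lower. At 12 h in WT liver the background was 10.9% higher and 10.2% lower among all genes tested.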
